A study of Sus scrofa with 9 samples.

Results

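The genes described here were the Notch receptors NOTCH1, NOTCH2, NOTCH3 and NOTCH4, the ligands JAG1, JAG2, DLL1 and DLL4, and the target genes HES1 and HEY1, taken by symbol from a table of FPKM (RNA fragments scaled by exon length and by the mapped fragments of the library) in developing teeth of miniature pigs. Of the 10 symbols, 9 had a row among the 34580 genes and transcripts listed, and NOTCH1 was not analysed here. RNA was sequenced from the germ of the third deciduous molar of the mandible (Dm3) of fetuses at embryonic day 40 (E40, cap stage), day 50 (E50, early bell stage) and day 60 (E60, late bell stage). Each stage had 3 libraries, a library was 1 column of the table, and the labels name no treatment or genetic change that sets the stages apart. The labels do not say whether the 3 libraries of a stage came from separate fetuses or whether germs were pooled, so the tests measure only the spread between these libraries, which may be technical. The comparisons ask how the RNA of the Notch genes differed between the stages.

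Notch receptors are single-pass membrane proteins that are switched on by ligands on a neighbouring cell. JAG and DLL proteins bind the receptor, an ADAM protease and then gamma-secretase cut it, and the released intracellular domain enters the nucleus, joins RBPJ and Mastermind proteins and turns on genes of the HES and HEY families, which encode transcriptional repressors. In the tooth germ the pathway is known for the dental epithelium and its stratum intermedium and for the dental papilla, and it also acts in the vessels that grow into the germ, where NOTCH4 and DLL4 are typical of endothelium and NOTCH3 of the muscle cells and pericytes around it.

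The libraries fell into 2 sets that did not follow the stages. The FPKM of each gene rose in equal steps worth 1 read, and the reads recovered from these steps came to 681667 to 1009841 in the 3 libraries of E40, 13361726 to 16063566 in those of E50, 15669354 in E60 library 1, and 811967 and 1204263 in E60 libraries 2 and 3. Over log2 FPKM of the genes tested, Pearson's r was 0.959 to 0.983 among the 4 deep libraries (over 5000000 reads), 0.743 to 0.838 among the 5 shallow ones, and 0.301 to 0.609 between the sets. E60 library 1 therefore stood with the E50 libraries and not with the rest of its stage. All E40 libraries were shallow and all E50 libraries deep, so that E40 against E50 and shallow against deep cannot be told apart. Comparisons with E60 are given with and without E60 library 1, and the only contrasts inside a set were E60 library 1 against E50 and E60 libraries 2 and 3 against E40. Tooth germ markers were present: the summed FPKM of 9 dental epithelium markers was 2370 or more in each library and that of 9 dental mesenchyme markers 838 or more, although CDH1 was listed at 0 in all 9 libraries. AMBN, an enamel matrix gene, was at 10400, 2180 and 5370 FPKM in the E60 libraries and at 6.48 or less in the others, so that E60 library 1 carried this marker of the late bell stage.

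At each stage the highest mean among the 9 genes was that of HES1, followed by JAG1 and NOTCH2 or by NOTCH2 and JAG1. HES1 averaged 43.9 ± 5.81 FPKM at E40, 54.7 ± 10.1 at E50 and 41.7 ± 19.3 at E60 (SD, n = 3). At E40 the libraries of HES1, JAG1, NOTCH2 and NOTCH4, in this order, did not overlap between neighbours. Below NOTCH4 the neighbours JAG2, NOTCH3, HEY1 and DLL1 overlapped, and DLL4 was last at 1.11 ± 0.969 FPKM. At E50 the libraries of HES1 and NOTCH2 overlapped at the top, HEY1 had moved up to the fourth place at 11.7 ± 1.08 FPKM, and NOTCH4 was last at 1.41 ± 0.336 FPKM, overlapping DLL4. At E60 the 3 libraries spread so widely that each gene overlapped the next in the order. FPKM is per length, so these levels may be compared between genes only as far as the exon lengths used were right, which was not checked.

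**Figure D1:**
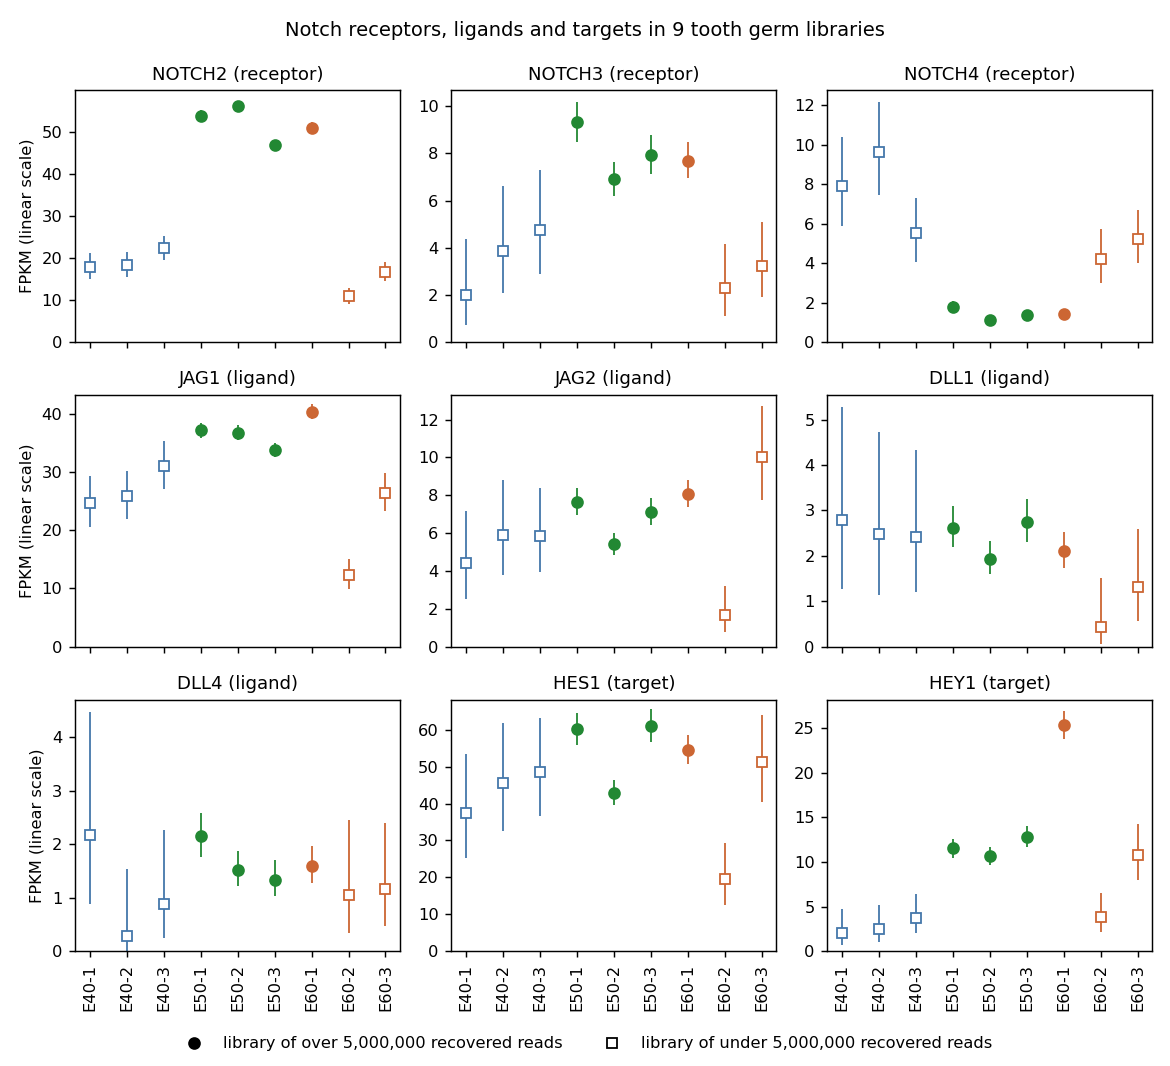
FPKM (vertical axes, linear, each from 0 with its own range) of the 9 Notch genes in each library (horizontal axes, stage and library number); filled circles are libraries of over 5000000 recovered reads, open squares those of under 5000000, colours mark stages, and bars are exact Poisson 95% intervals, which cover counting error only. NOTCH4 is low in the 4 filled libraries (1.11 to 1.78 FPKM) and higher in the 5 open ones (4.20 to 9.62 FPKM), NOTCH2 shows the opposite, and HEY1 is highest in E60 library 1 (25.3 FPKM).

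Among the receptors, NOTCH2 gave the most RNA in 9 of 9 libraries. Its FPKM was 17.9, 18.2 and 22.2 in E40 libraries 1, 2 and 3, 53.8, 56.1 and 46.8 in the E50 libraries, and 51.0, 10.8 and 16.6 in the E60 libraries, counted on 122 to 7632 reads. All E50 libraries stood above all E40 libraries, and the E60 libraries split, with library 1 among the E50 values and libraries 2 and 3 below the E40 values. From E40 to E50 the log2 fold change was 1.42 (SE 0.52) and did not pass the limits (adjusted p below 0.05, absolute log2 change of 1 or more) in the limma fit of all 9 libraries (adjusted p = 0.0538); it passed without E60 library 1 (adjusted p = 0.000853), where the shared estimate of spread was smaller. limma-voom on the recovered reads gave 1.08 and a call (adjusted p = 0.0485), and median-ratio scaling between libraries 0.75 and none (adjusted p = 0.0533). The change from E50 to E60 was -1.31 (SE 0.52, limma adjusted p = 0.164), and without E60 library 1 NOTCH2 fell by 1.95 on the log2 scale (SE 0.26, limma adjusted p = 0.000346). With the set of the library as a term beside stage, the change from E40 to E50 was -0.49 and that from E50 to E60 -0.03, and neither passed (limma adjusted p = 0.903 for the first). Sums of marker lists split alike, each carried largely by 1 gene. For the counts of markers, 16.8% of all genes tested were called higher from E40 to E50 and 21.8% lower. The dental mesenchyme sum was 1020 to 1520 FPKM at E40, 2810 to 3200 at E50 and 838 to 2680 at E60, of which VIM made up 876 to 1290, 2400 to 2750 and 560 to 1930; from E40 to E50, 3 of its 9 genes rose and 0 fell, and from E50 to E60 DMP1 rose (log2 fold change 4.79, limma adjusted p = 0.0373). The sum of 5 erythroid markers was 227 to 393, 728 to 1030 and 96.3 to 675 FPKM, nearly all of it HBB (221 to 382, 720 to 1020 and 89.0 to 668), while HBM changed by -1.09 from E40 to E50. The sum of 5 leukocyte markers was 2.59 to 3.95, 5.14 to 7.72 and 1.93 to 8.07 FPKM, led by AIF1 at E50 (3.80 to 6.58), while CSF1R was at 0.397 to 1.12 at E40 and 0.205 to 0.358 at E50. For 4 markers of Schwann cells and neurons the sums overlapped between the stages (0.505 to 5.58, 2.30 to 3.18 and 0.890 to 2.21 FPKM). Their part in the values of NOTCH2 was not tested. In RNA of a whole germ, fewer cells of a type and less RNA per cell cannot be told apart.

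NOTCH3, the receptor best known from vascular smooth muscle, was lower. It was at 2.0, 3.87 and 4.74 FPKM at E40, 9.32, 6.89 and 7.92 at E50, and 7.69, 2.27 and 3.20 at E60, where the shallow libraries held only 6 to 20 reads each. As for NOTCH2, the E50 libraries lay above the E40 libraries and E60 library 1 sat with E50. Between E40 and E50 the log2 fold change was 1.24 (SE 0.55, limma adjusted p = 0.0952), past the limits only without E60 library 1 or in a fit of these 2 stages alone (adjusted p = 0.0175 and 0.0153), and from E50 to E60 it was -1.04 (SE 0.55, limma adjusted p = 0.193) with all libraries and -1.53 (SE 0.41, limma adjusted p = 0.011) without E60 library 1. From E40 to E50 it was 0.80 by limma-voom and 0.57 after median-ratio scaling (adjusted p = 0.137 and 0.199), with no call. With the set as a term it was -0.24 and -0.05. The 8 markers of pericytes and smooth muscle, of which MYH11 was listed at 0 in all libraries, moved in part with it: their summed FPKM was 35.9 to 46.2 at E40, 76.6 to 80.7 at E50 and 22.2 to 101 at E60, and 4 of the 7 tested rose from E40 to E50, with RGS5 the largest (log2 fold change 3.22, limma adjusted p = 0.0228). The 4 were the pericyte markers RGS5, PDGFRB, ABCC9 and KCNJ8, and of all genes tested 16.8% were called higher in this comparison. CSPG4, also a pericyte marker, changed by 0.74 (limma adjusted p = 0.427) and did not pass. The contractile genes ACTA2 and CNN1 changed by -0.38 and -0.86 and did not pass. After median-ratio scaling ABCC9 lost its call (1.01, limma adjusted p = 0.0585), and ACTA2 and CNN1 were called lower (-1.05 and -1.52). Their part in the values of NOTCH3 was not tested.

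NOTCH4 went the other way. It was at 7.92, 9.62 and 5.51 FPKM at E40 (50, 68 and 49 reads), 1.78, 1.11 and 1.35 at E50 (125 to 175 reads), and 1.44, 4.20 and 5.24 at E60 (156, 39 and 62 reads). The E40 values were all above the E50 values, and at E60 library 1 was at the E50 level while libraries 2 and 3 lay between the stages. NOTCH4 fell by 2.35 on the log2 scale from E40 to E50 (SE 0.56, limma adjusted p = 0.0159) in the fit of all libraries. The call was kept with median-ratio scaling between libraries (-2.98, adjusted p = 0.021) and with limma-voom on the recovered reads (-2.78, adjusted p = 0.0209). It was lost with the set as a term (-0.71, adjusted p = 0.903) and when E40 library 1, E40 library 2, E50 library 2 or E50 library 3 was left out (log2 fold change -2.33 to -2.17, adjusted p 0.0543 to 0.0645). From E50 to E60 the change was 1.14 (SE 0.56, limma adjusted p = 0.178), and 1.69 (SE 0.36, limma adjusted p = 0.00402) without E60 library 1. Inside the sets, E60 library 1 differed from the E50 mean by 0.05 on the log2 scale, and E60 libraries 2 and 3 from the E40 mean by -0.66, both below all E40 libraries.

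Of 13 endothelial markers listed, 11 had a row, among them PECAM1 and KDR, and their summed FPKM was 45.5 to 69.9 at E40, 99.6 to 117 at E50 and 40.4 to 118 at E60. It was thus higher at E50, where NOTCH4 was low. From E40 to E50, 3 of the 11 rose, where 16.8% of all genes tested were called higher. ESAM, on 0, 0 and 3 reads at E40, rose the most (log2 fold change 4.69, limma adjusted p = 0.0131). TIE1 differed from the sum and was higher at E40 as NOTCH4 was, at 3.7, 3.31 and 3.94 FPKM at E40 (2 or 3 reads each), 0.830, 0.521 and 1.09 at E50, and 0.646, 3.78 and 0 at E60 (log2 fold change -2.08, limma adjusted p = 0.158). Skeletal muscle markers fell from E40 to E50 as NOTCH4 did, with MYOG and MYLPF changed by -4.10 and -3.08 on the log2 scale (limma adjusted p = 0.0123 and 0.00916). Of the 9 listed, 7 had a row, of which TNNT3 and CKM were listed at 0 in all libraries. Their sum was 160 to 197 FPKM at E40, 20.1 to 22.9 at E50 and 11 to 15.3 at E60. It thus stayed low in E60 libraries 2 and 3, where NOTCH4 was at 4.20 and 5.24 FPKM. MYOG was at 0.710 to 1.55 FPKM at E50 and at 6.43 and 5.05 in these E60 libraries (6 reads each). The part of either list in the values of NOTCH4 was not tested.

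The make-up of the receptor RNA within a library does not depend on any scaling between libraries. NOTCH2 made up 64.3%, 57.4% and 68.5% of the summed FPKM of the 3 receptors measured at E40, 82.9%, 87.5% and 83.5% at E50, and 84.8%, 62.6% and 66.3% at E60. NOTCH4 made up 28.5%, 30.4% and 17.0% at E40, 2.74%, 1.74% and 2.40% at E50, and 2.39%, 24.3% and 20.9% at E60, so that E60 library 1 again matched E50 and the other E60 libraries matched E40. NOTCH3 kept between 7.20% and 14.6% in all 9 libraries. The stage means of NOTCH2 were 63.4 ± 5.58% at E40 and 84.6 ± 2.51% at E50, and those of NOTCH4 25.3 ± 7.26% and 2.29 ± 0.508% (SD, n = 3), with no overlap. The exact two-sided permutation test gave p = 0.1 for both, the smallest that 3 against 3 libraries allow, and 0.525 after Benjamini-Hochberg adjustment over the 21 share comparisons made.

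Among the ligands, JAG1 was the highest in 9 of 9 libraries, at 24.7, 25.9 and 31.1 FPKM at E40, 37.2, 36.8 and 33.8 at E50, and 40.4, 12.3 and 26.4 at E60 (96 to 3688 reads). The E50 libraries lay above the E40 libraries by less than for NOTCH2, with a log2 fold change of 0.41 (SE 0.43, limma adjusted p = 0.444) that turned to -0.27 with median-ratio scaling. JAG2, the other ligand of its family, was at 4.41, 5.91 and 5.87 FPKM at E40, 7.63, 5.42 and 7.12 at E50, and 8.07, 1.69 and 10 at E60, with 9 reads behind the low value of E60 library 2. Its stages overlapped, and between E40 and E50 the log2 fold change was 0.31 (SE 0.63, limma adjusted p = 0.694), or -0.36 with median-ratio scaling.

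DLL1 was at 2.78, 2.48 and 2.41 FPKM at E40 (9, 9 and 11 reads), 2.61, 1.93 and 2.75 at E50 (111 to 136 reads), and 2.10, 0.420 and 1.32 at E60 (117, 2 and 8 reads). The E40 and E50 values overlapped (log2 fold change -0.08, SE 0.61, limma adjusted p = 0.913), and all 3 E60 values lay below all 3 E40 values, although the 2 reads of E60 library 2 allow 0.0509 to 1.52 FPKM (exact Poisson 95% interval). The change was -1.09 (SE 0.61) from E50 to E60 and -1.17 (SE 0.61) from E40 to E60, neither past the limits with all libraries (limma adjusted p = 0.208 and 0.328). Without E60 library 1, DLL1 fell by 1.54 on the log2 scale from E50 to E60 (SE 0.48, limma adjusted p = 0.0227). As a share of the 4 ligands it was 8.18%, 7.19% and 5.99% at E40, 5.27%, 4.23% and 6.10% at E50, and 4.04%, 2.72% and 3.39% at E60, and the E60 shares were the lowest. The exact permutation p was 0.1 for E60 against E50 and against E40, and 0.525 adjusted over the 21.

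DLL4, a ligand of endothelial tip cells and arteries, was at 2.17, 0.277 and 0.881 FPKM at E40 (7, 1 and 4 reads), 2.15, 1.52 and 1.34 at E50 (66 to 108 reads), and 1.59, 1.06 and 1.16 at E60 (88, 5 and 7 reads). The stages overlapped, and the log2 fold change of 0.88 from E40 to E50 (SE 0.71, limma adjusted p = 0.326) did not pass. JAG1 kept 67.9% to 80.6% of the ligand RNA over the 9 libraries.

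**Figure D2:**
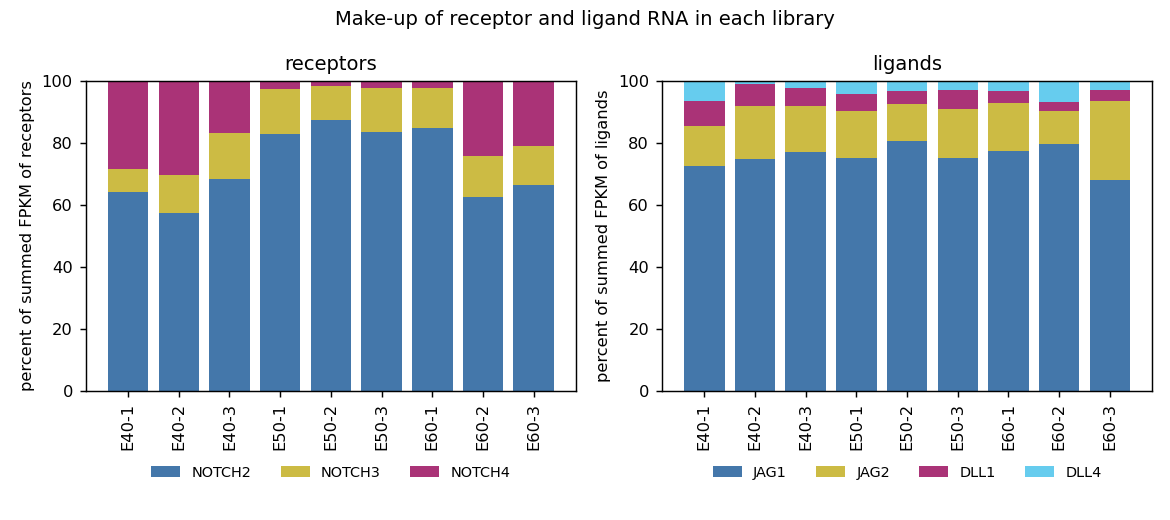
Percent of the summed FPKM of the 3 receptors (left) and 4 ligands (right) that each gene took in each library (horizontal axis, stage and library number), as stacked bars from 0. The NOTCH4 segment is 17.0% to 30.4% in the E40 libraries and in E60 libraries 2 and 3, and 1.74% to 2.74% in the E50 libraries and E60 library 1, while JAG1 fills 67.9% to 80.6% of each ligand bar.

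The targets behaved unlike each other. HES1, a repressor that keeps progenitor cells from differentiating, was at 37.4, 45.6 and 48.6 FPKM at E40 (30, 41 and 55 reads), 60.1, 43.0 and 60.9 at E50 (613 to 753 reads), and 54.5, 19.5 and 51.2 at E60 (751, 23 and 77 reads). Its stages overlapped, with E60 library 2 apart from the other 8, and between E40 and E50 the log2 fold change was 0.31 (SE 0.43, limma adjusted p = 0.565), or -0.37 with median-ratio scaling.

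HEY1, a repressor of the related HEY family known from vessels, heart and bone, was at 2.03, 2.54 and 3.75 FPKM at E40 (5, 7 and 13 reads), 11.5, 10.7 and 12.8 at E50 (443 to 482 reads), and 25.3, 3.87 and 10.8 at E60 (1071, 14 and 50 reads). Every E50 and E60 library was above every E40 library, the nearest being E60 library 2, whose counting interval overlaps those of E40. HEY1 rose by a log2 fold change of 2.07 from E40 to E50 (SE 0.62, limma adjusted p = 0.0309), and by 1.41 (adjusted p = 0.0217) after median-ratio scaling. The call was lost with limma-voom on the recovered reads (1.63, adjusted p = 0.062), with the set as a term (0.12, adjusted p = 0.983), and without E40 library 1 or 2 or any 1 of the E50 libraries (log2 fold change 1.88 to 2.14, adjusted p 0.0783 to 0.0993). From E40 to E60 the change was 1.89 (SE 0.62) and did not pass with FPKM as deposited (limma adjusted p = 0.191), but it did after median-ratio scaling (2.0, SE 0.35, adjusted p = 0.020), alone of the 9 genes and where 2.03% of all genes tested were called higher.

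HEY1 was the only one of the 9 genes with no overlap and the same sign inside both sets. The share of all genes tested with this pattern is not given here, and the deep set held only 1 E60 library. The pattern therefore cannot be called particular to HEY1. E60 library 1 was above all E50 libraries, by 1.12 on the log2 scale over their mean, and E60 libraries 2 and 3 were above all E40 libraries, by 1.24. After median-ratio scaling HEY1 was at 2.58, 2.88 and 3.63 at E40, 7.87, 7.79 and 8.76 at E50, and 19.2, 7.61 and 12.7 at E60 (FPKM divided by the size factor of the library). The value of E60 library 2 was then further above those of E40, but it still rested on 14 reads. Its counting interval, scaled alike, still overlapped those of E40. With the set as a term and median-ratio scaling the change from E40 to E60 was 1.68 (SE 0.28, limma adjusted p = 0.0142), and without the scaling 1.24 (adjusted p = 0.138). The change from E50 to E60 had no fixed sign: it was -0.18 (SE 0.62, limma adjusted p = 0.827) with FPKM as deposited, -0.83 (adjusted p = 0.137) without E60 library 1, 0.59 after median-ratio scaling and 0.51 without E60 library 2.

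The dental epithelium markers were highest in the same library as HEY1: their sum was 3410 to 4880 FPKM at E40, 2370 to 3320 at E50 and 4740 to 21500 at E60, the top value in E60 library 1. From E50 to E60, ENAM, AMBN and AMEL rose (log2 fold change 10.85, 10.31 and 9.10, limma adjusted p = 9.73e-05, 0.000102 and 0.000637). These changes were 10.26, 9.78 and 8.40 without E60 library 1. The endothelial and pericyte sums given above were higher at E50 than at E40, as HEY1 was. The part of these markers in the values of HEY1 was not tested.

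The ratio of HEY1 to HES1 within a library, chosen after the values were seen, was 0.0543, 0.0556 and 0.0770 at E40, 0.192, 0.248 and 0.210 at E50, and 0.465, 0.198 and 0.212 at E60. All E50 and E60 libraries were above all E40 libraries, but as E40 had no deep library, only E60 libraries 2 and 3 met E40 inside a set. The ratios of E40 rest on 5, 7 and 13 reads of HEY1 and that of E60 library 2 on 14, against 23 of HES1. No scaling between libraries enters this ratio, which reuses the HEY1 values given above. It is given with no test.

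**Figure D3:**
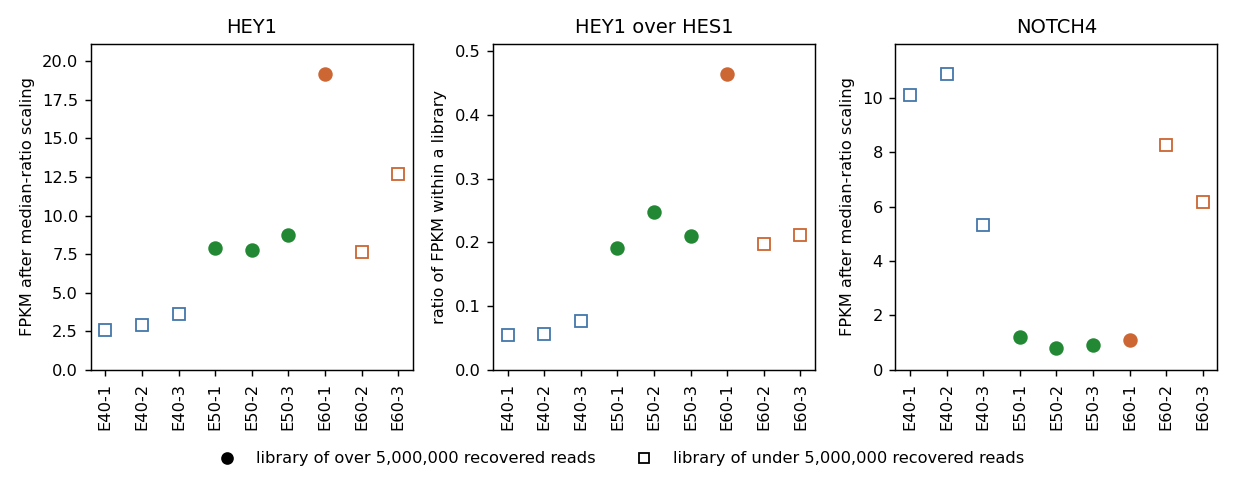
HEY1 and NOTCH4 in FPKM divided by the median-ratio size factor (left and right, linear axes from 0) and the FPKM ratio of HEY1 to HES1 (middle) in each library, with filled circles for libraries of over 5000000 recovered reads, open squares for those of under 5000000 and colours for stages. HEY1 and its ratio to HES1 are lowest in the 3 E40 libraries (2.58 to 3.63, and 0.0543 to 0.0770), whereas NOTCH4 is low in the 4 filled libraries whatever their stage.

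Counted together, 2 of the 9 genes passed the limits from E40 to E50 in the fit of all libraries, HEY1 upward and NOTCH4 downward. Of all 19618 genes tested in that comparison 38.6% passed, 16.8% upward and 21.8% downward, so a share of 2 in 9 was below the background. The median log2 fold change was 0.41 over the 9 genes and 0.55 over all genes. Without E60 library 1, NOTCH2, NOTCH3 and HEY1 were called higher and NOTCH4 lower, where 30.5% of all genes were called higher and 24.2% lower. Median-ratio scaling, which brought the median of all genes to -0.10, left the same 2 genes called and a median of -0.27 over the 9, and split the calls over all genes into 2348 upward and 4893 downward in place of 3296 and 4284. As all 9 genes were above the filter (at least 1 FPKM in at least 2 libraries), none was left untested.

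From E50 to E60 limma called 0 of the 9 genes with all libraries, 1 had an unadjusted p under 0.05, and limma-voom also called 0, while 0.0714% of all genes were called. The median log2 fold change was -0.51 for the 9 and -0.64 for all genes. Without E60 library 1, NOTCH2, NOTCH3 and DLL1 were called lower and NOTCH4 higher, against 39.1% of all genes called lower and 20.0% higher, and the medians were -0.83 and -0.94. JAG1, JAG2, DLL4 and HES1 changed by -0.60 to -0.35 with all libraries, by -0.99 to -0.53 without E60 library 1 and by 0.18 to 0.41 after median-ratio scaling, with no call in any of these, and JAG1 without E60 library 1 (-0.99, limma adjusted p = 0.0266) missed only the limit on the fold change.

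From E40 to E60 limma with all libraries again called 0 of the 9, with 1 at an unadjusted p under 0.05 and 0 by limma-voom, and 1.80% of all genes were called. Besides HEY1 (1.89) and DLL1 (-1.17), NOTCH4 changed by -1.21 (SE 0.56, limma adjusted p = 0.291), and the other 6 changed by -0.20 to 0.52, each with the opposite sign in at least 1 of the other fits. The call of HEY1 without E60 library 2 (2.58, SE 0.44, limma adjusted p = 0.0189) was the only one among the fits that left out 1 library. Without E60 library 1, 6.06% of all genes were called and none of the 9, with 2 at an unadjusted p under 0.05. HEY1 was then at 1.24, NOTCH4 at -0.66, DLL1 at -1.63 and the other 6 at -0.59 to 0.35.

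**Figure D4:**
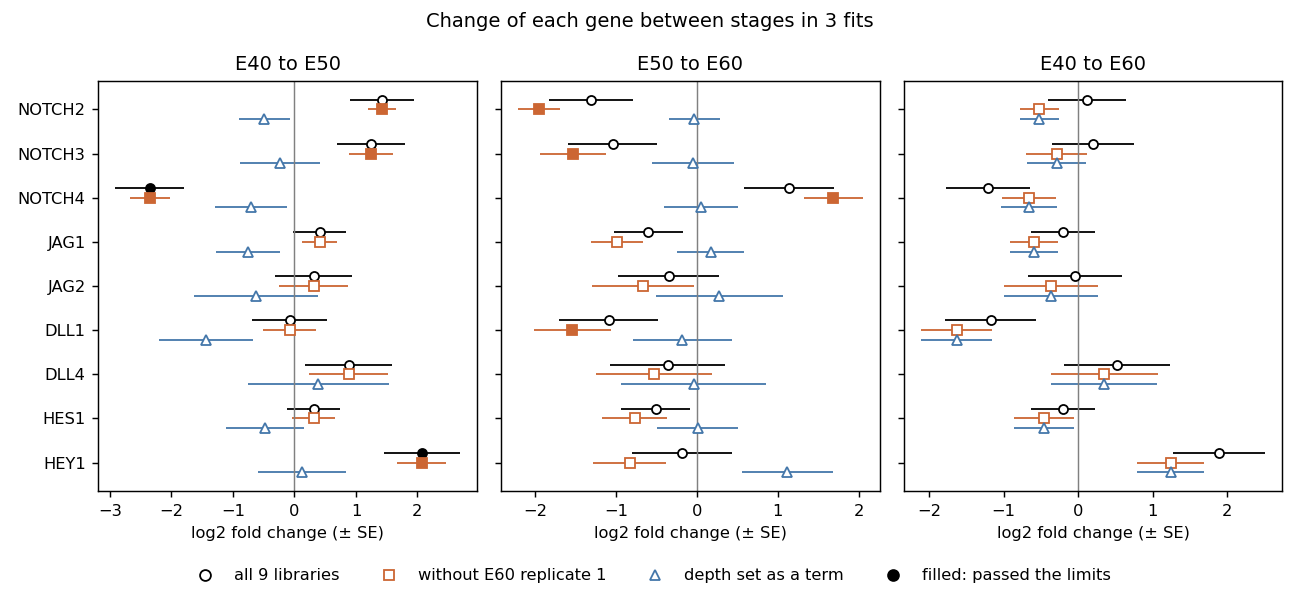
Log2 fold change (horizontal axes, later minus earlier stage, bars ± SE) of the 9 genes in 3 comparisons and 3 limma fits: all 9 libraries (circles), without E60 library 1 (squares) and with the set of the library as a term (triangles), filled where the adjusted p was under 0.05 and the change at least 1. NOTCH4 and HEY1 are filled from E40 to E50 in the first 2 fits (-2.35 and 2.07), no gene is filled with the set as a term, and NOTCH2 and NOTCH3 change sign from E40 to E50 in that fit.

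The genes whose log2 FPKM ran closest to each Notch gene over the 9 libraries were named as a description, and the libraries share depth and set. For NOTCH4 they were MST1 and UBA7 (Pearson's r = 0.996 and 0.992), both at 12.3 FPKM or more at E40 and at 1.69 to 2.44 at E50. NOTCH2 was closest to BAZ1B and KIAA0232 (both r = 0.996), NOTCH3 to PEX26 and VSIG10 (0.99 and 0.986), JAG1 to FAM20B and ABHD6 (0.992 and 0.991), JAG2 to CDIPT and COQ9 (0.978 and 0.975), and DLL1 to DNAJB2 (0.992). DLL4 was closest to ENG and SETD4 (0.950 and 0.943), of which ENG is a coreceptor of endothelial cells, and HES1 to TMEM259 and MRPL28 (0.994 and 0.99). For HEY1 it was AGPAT9 (0.995), which was likewise lowest in the E40 libraries, at 2.91 to 5.16 FPKM, and highest in E60 library 1, at 24.6 FPKM.

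Of 59 other genes of the pathway, 51 had a row and 39 were tested. From E40 to E50, 5 rose and 0 fell, where 16.8% of all genes tested were called higher and 21.8% lower, at a median log2 fold change of 0.97 against 0.55 over all genes. The share of 5 in 39 was below that background. They were ITCH, a ubiquitin ligase that acts on Notch (2.41, SE 0.71, limma adjusted p = 0.0291), POGLUT1, which adds glucose to the receptor (2.26, SE 0.70, limma adjusted p = 0.0341), APH1B, a subunit of gamma-secretase (2.22, SE 0.63, limma adjusted p = 0.0256), MIB1, the ubiquitin ligase of the ligands (2.11, SE 0.67, limma adjusted p = 0.035), and ADAM10, which makes the first cut (1.97, SE 0.57, limma adjusted p = 0.0267). For APH1B the E40 libraries held 1 to 3 reads and for POGLUT1 3 to 8. MIB1 was at 18.1, 21.8 and 27.4 FPKM at E40, 89.9, 109 and 90.1 at E50, and 100, 11.7 and 23.6 at E60, the split of E60 seen for NOTCH2. RBPJ, the DNA-binding protein of the pathway, was at 8.08, 8.15 and 10.5 FPKM at E40, 25.1, 31.1 and 25.4 at E50, and 31.7, 5.25 and 7.49 at E60, and did not pass with all libraries (1.60, SE 0.60, limma adjusted p = 0.0584). In the fit without E60 library 1, 14 of 39 rose, against 30.5% of all genes, with HEY2 (3.90, SE 1.40, limma adjusted p = 0.0401) the largest, and DLK2 fell (-1.87, SE 0.63, limma adjusted p = 0.0303). HEY2 had 0, 7 and 13 reads in the E40 libraries. Median-ratio scaling gave 4 higher and 3 lower (MIB2, DLK2 and HES6). Leaving out E40 library 1, E40 library 2 or any E50 library gave 0, leaving out E40 library 3 gave 2, and leaving out E60 library 2 gave 15.

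From E50 to E60, limma called 0 of the 39 with all libraries, although 14 had an unadjusted p under 0.05, and limma-voom called 0. The median was -1.06, against -0.64 over all genes. Without E60 library 1, 22 were called lower, led by ITCH (-2.59), MIB1 (-2.52) and POGLUT1 (-2.47), and 1 higher, NUMB (2.57, SE 0.27, limma adjusted p = 0.000113), while 39.1% of all genes were called lower and 20.0% higher. From E40 to E60, limma called 0 with all libraries, 4 had an unadjusted p under 0.05, and limma-voom called 1. With E60 library 1 left out, 4 of 39 were called, against 6.06% of all genes: NUMB higher (2.55) and TLE2, MAML3 and CTBP2 lower (-1.46, -1.36 and -1.21). The lowest p-values were those of HES6 (-1.65, SE 0.44, limma adjusted p = 0.118), NUMB (1.89, SE 0.53, limma adjusted p = 0.133) and CTBP2 (-0.99, SE 0.33, limma adjusted p = 0.194).

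NUMB, an inhibitor of Notch, was at 14.0, 11.1 and 8.79 FPKM at E40, 9.67, 12.3 and 10.9 at E50, and 16.7, 74.4 and 57.2 at E60, with 346 or more reads in the E60 libraries. The rise was in E60 libraries 2 and 3, and E60 library 1 was only just above the other stages. HES6, a HES family member that opposes HES1, was at 13.8, 17.8 and 21.2 FPKM at E40, 14.9, 9.83 and 16.6 at E50, and 6.02, 3.13 and 8.58 at E60 (135, 6 and 21 reads), and was lower in every E60 library than in any other. It was called lower from E40 to E60 after median-ratio scaling (-1.54, SE 0.32, limma adjusted p = 0.0381). CTBP2, a corepressor that acts with RBPJ, was at 31.7, 49.4 and 43.6 FPKM at E40, 65.7, 66.2 and 54.5 at E50, and 27.9, 16.6 and 18.8 at E60, with the same separation of E60 from both other stages. The share of all genes separated as HES6 and CTBP2 were is not given here. APH1A, SNW1, SPEN and FBXW7 were listed at 0 in all 9 libraries.

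**Figure D5:**
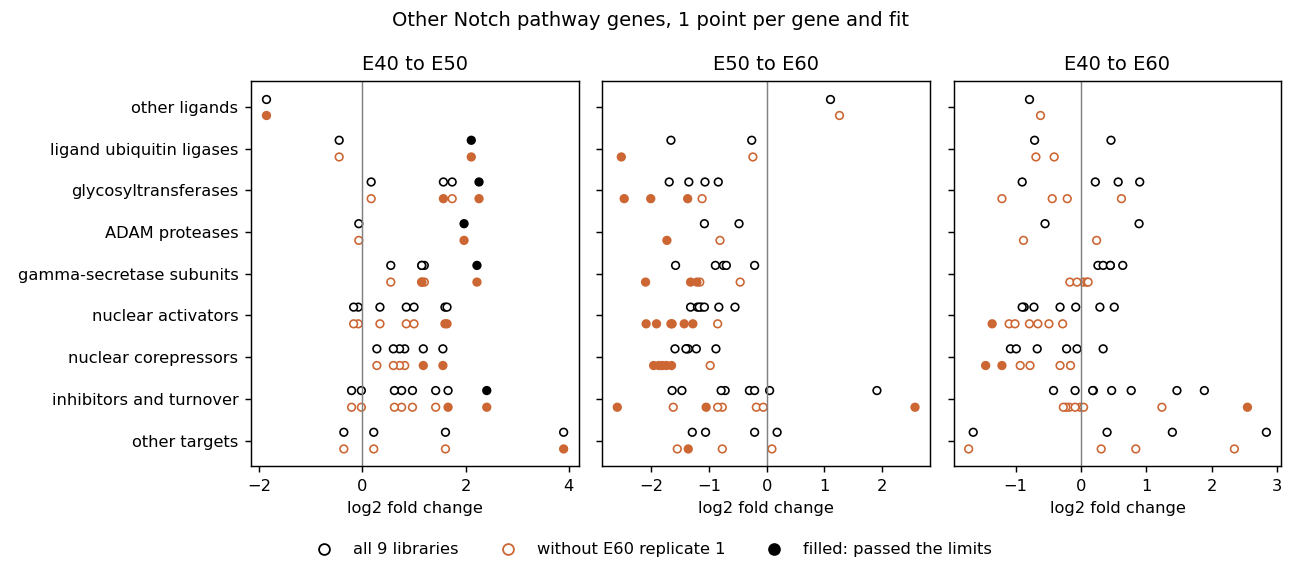
Log2 fold change (horizontal axes) of the 39 tested genes of the pathway outside the 9, 1 point per gene and fit, by role (rows), with all 9 libraries (black) and without E60 library 1 (orange), filled where the limits were passed. From E40 to E50, 5 black points are filled, all to the right, and from E50 to E60, 22 orange points are filled to the left and 1, NUMB, to the right, with no black point filled.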

How the data were processed

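Total RNA of Dm3 germs was depleted of rRNA and made into directional libraries. The authors aligned the reads with TopHat and deposited FPKM per gene and library, and the processing notes name the build Sscrofa10.2. No scaling between libraries is stated. Whole reads were recovered from the FPKM steps for 28960 of 28963 rows above 0 (99.99%), and on simulated data they were exact for 95.94% of 11970 genes. They gave the depth and the Poisson intervals, which cover counting error only.

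Stages came from the deposited labels. The 19618 of 34580 genes that reached 1 FPKM in 2 or more libraries were tested on log2(FPKM + 0.1), which understates changes of low genes, with limma 3.58.1 in R 4.3.3, a mean-variance trend, 1 coefficient per stage and Benjamini-Hochberg adjustment over all genes tested. Differences between stages are later minus earlier. On data simulated for E40 to E50 (19618 genes), 120 of 200 genes changed by 4 on the log2 scale were called, 0 of 200 changed by 2 or by 1.5, and 0 unchanged genes. The simulation had no sets of libraries and only these 200 changed genes, whereas 38.6% of genes passed in the real comparison. Its rates therefore do not carry over to the real calls and say nothing about calls due to the sets. Median-ratio scaling divided FPKM by a size factor per library. Shares were compared by exact permutation. The Notch genes, pathway genes and markers were chosen with earlier results of these data known. Of other pathway genes and markers, those named were, per comparison and direction, the 3 called with the largest change or, with none called, the 3 with the smallest p. For each Notch gene the 2 genes with the highest r were named, except where one is not reported here. The 5 pathway genes called from E40 to E50, RBPJ, MIB2, DLK2, PECAM1, KDR, the further markers named and genes at 0 were added after their values were seen, as were the fit with the set as a term plus median-ratio scaling and the HEY1 ratio. The rest used scipy 1.17.1, pandas 2.3.3, numpy 2.4.6 and matplotlib 3.10.9 in Python 3.11.15. Sequences and gene positions were not used here.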

Additional observations from a re-analysis of the deposited data

How the results depend on the processing

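In the shallow libraries 1 to 20 reads lay behind each value of NOTCH3, DLL1 and DLL4, which limits their precision, and the wide spread of E60 enters every fit of all libraries. In the limma fits, leaving out 1 library at a time gave 0 to 4 of the 9 genes called from E40 to E50, 0 to 4 from E50 to E60 and 0 to 1 from E40 to E60, and 0 to 15, 0 to 23 and 0 to 4 of the other pathway genes. From E40 to E50, 4 of the 9 and 15 of the other genes were called in fits of these stages alone, and 0 and 0 with the set as a term, with or without median-ratio scaling. A pseudocount of 1 FPKM gave 8 of the other genes. Median-ratio scaling without E60 replicate 1 gave 8, 6 and 2 of the other genes in the 3 comparisons and 1 of the 9, NOTCH4, from E50 to E60. From E40 to E60, 1 of the 9, HEY1, was called with median-ratio scaling, with all libraries, without E60 replicate 1 or with the set as a term, and the other genes called were 1 with that scaling, 1 with limma-voom, 4 with the set as a term and 2 with both. The share of all genes called moved with the fit too. From E50 to E60 it was 0.0714% with all libraries, and 39.1% lower and 20.0% higher without E60 replicate 1. The counts of this paragraph describe the fits and are no result about the Notch genes.

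Directions turned as follows. With the set as a term, E40 to E50 became -0.49 for NOTCH2, -0.24 for NOTCH3, -0.75 for JAG1, -0.63 for JAG2 and -0.48 for HES1. With median-ratio scaling as well, it was -0.17 for NOTCH2, -0.43 for JAG1, -0.33 for JAG2 and -0.15 for HES1, and E50 to E60 was 0.09 for NOTCH2 and 0.07 for NOTCH3. Median-ratio scaling alone gave -0.27, -0.36 and -0.37 for JAG1, JAG2 and HES1, and -0.25, -0.34 and -0.35 without E60 replicate 1. On recovered reads JAG2 was at -0.08 and HES1 at -0.07. HEY1 from E50 to E60 became 0.59 with that scaling, 0.25 with it and without E60 replicate 1, 0.35 on recovered reads, 1.12 with the set as a term and 1.23 with both, and ranged from -0.83 to 0.51 over the libraries left out. DLL1 from E40 to E50 ranged from -0.18 to 0.07 over them, and the sign turned without E50 replicate 2. The cause was not tested. The shares kept their direction in all 24 leave-outs computed.

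With the replicate block, 2, 0 and 0 of the 9 genes were called in the 3 comparisons, as without it, and 1, 0 and 0 of the other pathway genes. The numbers are not known to pair libraries: deviations of libraries with the same number correlated by -0.52 to 0.11.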
